A study of Mus musculus with 6 samples.

Results

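Pyruvate entry into mitochondria, the tricarboxylic acid (TCA) cycle and the malic enzymes were followed through 34 genes, chosen by gene symbol from the roles of their enzymes, out of 48967 genes with an identifier of their own in the count files. RNA was sequenced from mouse 2-cell embryos after lipid droplets had been removed mechanically from the zygotes, and from control embryos of the same culture. Each group comprised 3 libraries, and each library was made from 3 pooled embryos. The question addressed was how the transcriptome of the embryo differs after delipidation.

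All embryos were F1 (C57Bl/10 X CBA/H) with the genotype wt, were labelled day 2, and carried the treatment label of in vitro culture from the zygote, which took place in KSOM free of fatty acids. The delipidated group had in addition been exposed to cytochalasin B and sucrose, centrifuged, opened with a laser at the zona pellucida and biopsied. For the sequenced controls, which the paper calls control (IVC), it is not stated outright whether any of these steps besides culture was applied, so the effect of the procedure and that of the missing lipid cannot be told apart. The embryos of several hormonally stimulated females had been mixed before they were divided between the groups, and the p-values below measure the spread between pools of this one mixture. Counts assigned to genes were 12164963, 16165958 and 12980787 in control replicates 1, 2 and 3, and 20059460, 16332103 and 14683741 in delipidated replicates 1, 2 and 3. The delipidated libraries had more counts in the median, yet fewer genes with at least 1 count: 22855, 22437 and 20582 genes were seen in the control and 17091, 19408 and 20158 in the delipidated libraries, without overlap.

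Pyruvate crosses the inner mitochondrial membrane through a carrier and is then either oxidized to acetyl-CoA by the pyruvate dehydrogenase complex or carboxylated to oxaloacetate. Citrate synthase joins these products, and the cycle regenerates oxaloacetate while it delivers reducing equivalents to the respiratory chain. Pyruvate is the fuel on which the mouse zygote is known to depend for its first cleavage, and citrate and malate that leave the mitochondrion feed fatty acid synthesis with acetyl-CoA and, through malic enzyme, with NADPH.

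The transcripts of this pathway spanned a wide range of levels, and the ranges of control and delipidated libraries overlapped for all but 1 of the members. Levels of different genes are compared in CPM per kb, where CPM is the count relative to the library size of the genes tested and its TMM factor, and kb the length of the exonic parts in kilobases. Citrate synthase stood highest, and the mean over 6 libraries was 169 times as high for Cs as for Suclg1, the lowest of the genes tested. Of the 33 members tested, 22 lay above 3.95 CPM per kb, the median level of the 13096 protein-coding genes tested. In the order of all 34 members, the ranges over the 6 libraries overlapped in all 33 pairs of neighbours, and 1 of these pairs, Mdh2 above Pdp2, had the same order in 6 of 6 libraries. In CPM, the members together reached 1680, 1537 and 1597 in the control and 1642, 1667 and 1797 in the delipidated libraries. The groups overlapped in this sum, whose mean ± SD was 1605 ± 71.9 CPM (n = 3) in the control and 1702 ± 83.4 CPM (n = 3) in the delipidated embryos.

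**Figure D1:**
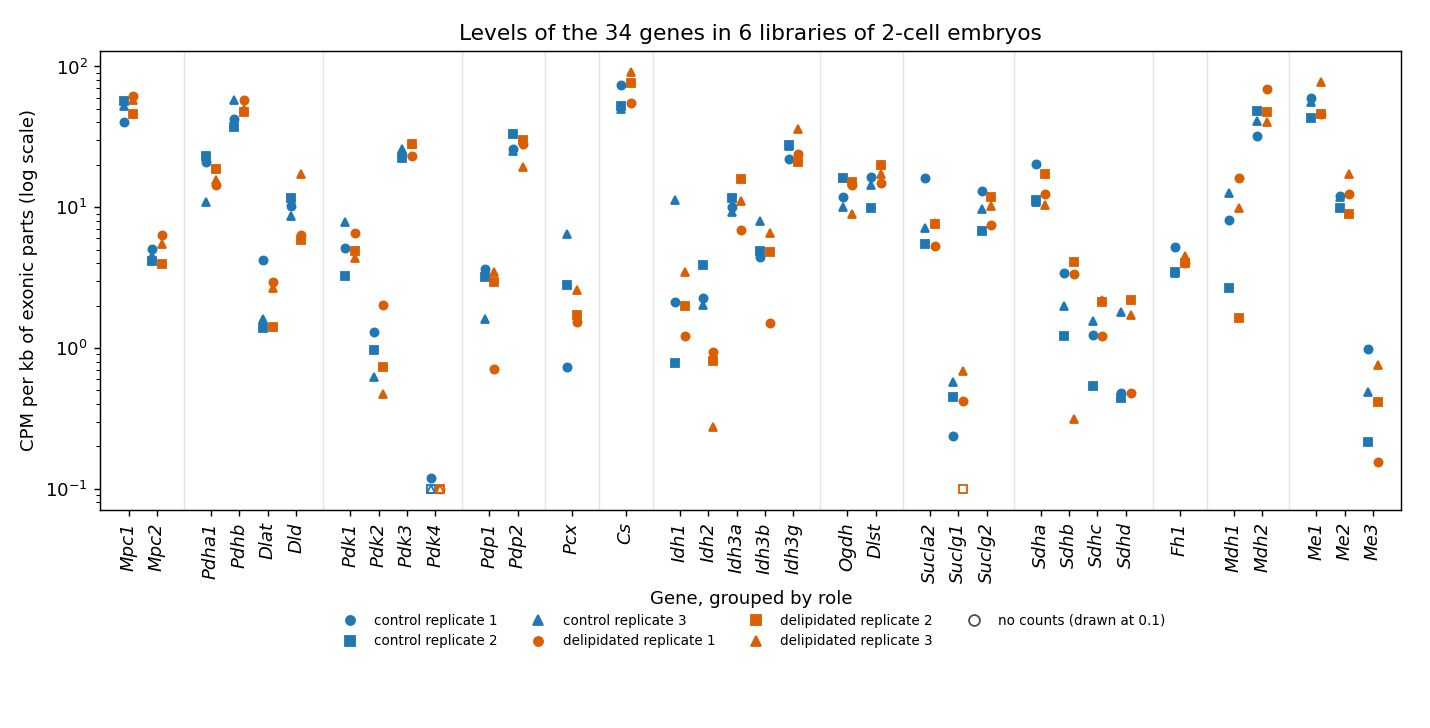
Level of each of the 34 genes in CPM per kb of exonic parts on a log axis, grouped by role; each point is 1 library of 3 pooled embryos, blue for control and orange for delipidated, and open points had no counts. Cs, Me1, Mpc1, Pdhb and Mdh2 lie highest, Suclg1 and Pdk4 lowest, and the blue and orange points separate for Idh2.

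edgeR's quasi-likelihood test over 16020 genes called 0 of the 33 members tested (adjusted p under 0.05 and a log2 fold change beyond 1), beside 0% of all genes tested. DESeq2's Wald test without a filter on low counts also called 0 members, beside 9 genes higher and 40 lower among all genes. The smallest Benjamini-Hochberg adjusted p of a member with edgeR was 1.00. At an unadjusted p under 0.05, 1 member was lower, Idh2, which is 3.03% of the 33 beside 1.74% of all genes tested, and 0 members were higher, beside 1.15% of all genes. The log2 fold change was positive for 18 members and negative for 15, with a median of 0.06 beside 0.00 over all genes tested. RNA was measured in whole pools, so fewer cells of a kind and less RNA per cell cannot be told apart.

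How narrowly the comparison was determined depended on the level of the gene. Among the 14 members with a mean of at least 10 CPM per kb, the log2 fold change lay between -0.17 and 0.37, with standard errors from 0.24 to 0.36. The 19 tested members below that level had standard errors from 0.33 to 1.44 and log2 fold changes from -2.01 to 0.73. The 95% interval of the log2 fold change lay within 1 unit of 0 on either side for 16 members, and a 2-fold difference could not be resolved for the remaining ones at this depth and replicate number.

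**Figure D2:**
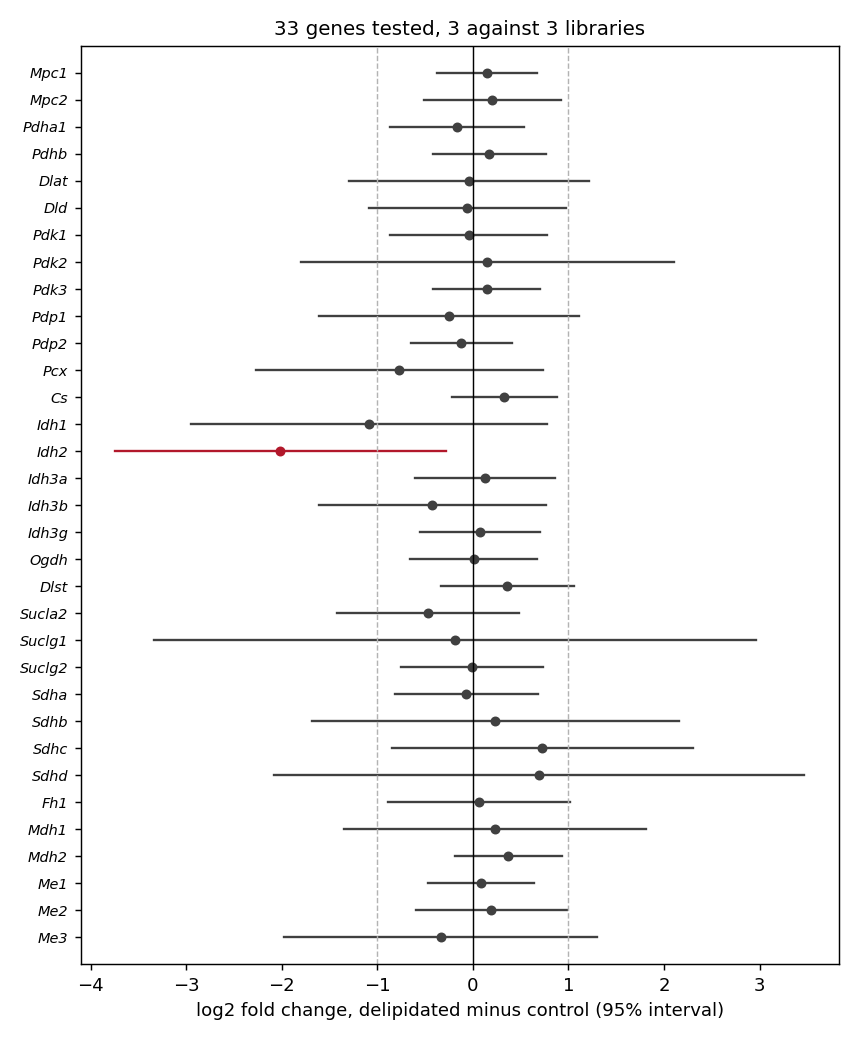
Log2 fold change of delipidated over control embryos for the 33 genes tested, as a point with its 95% interval from edgeR's quasi-likelihood fit; dashed lines mark 1 unit on either side of 0. The interval of Idh2 (red), from -3.74 to -0.28, is the single one that leaves out 0.

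Of the mitochondrial pyruvate carrier, whose subunits Mpc1 and Mpc2 work as a heterodimer, Mpc1 was at 40.6, 56.5 and 52.4 CPM per kb in the control and 61.4, 46.1 and 57.7 CPM per kb in the delipidated libraries. The highest value belonged to delipidated replicate 1 and the lowest to control replicate 1, and the groups overlapped (log2 fold change 0.15, standard error 0.24). Mpc2 ranged from 3.96 to 6.33 CPM per kb, below Mpc1 in 6 of 6 libraries. The level of Mpc1 is uncertain, since 45.9% of its counts lie on parts that overlap 4930506C21Rik on the opposite strand and 16.6% of the 100-base windows in its transcripts occur in another gene, a pseudogene included.

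In the pyruvate dehydrogenase complex, Pdhb, the beta subunit of the decarboxylase E1, was highest, with 42.6, 37.4 and 57.8 CPM per kb in the control and 57.5, 47.7 and 50.2 CPM per kb in the delipidated libraries. All 3 delipidated libraries lay inside the control range (log2 fold change 0.17, standard error 0.27). Its partner Pdha1, the X-linked alpha subunit, had a mean level of 17.2 ± 4.46 CPM per kb (SD, n = 6) and lay below Pdhb in 6 of 6 libraries. Its level is uncertain too, as 15% of its counts lie on parts that overlap Map3k15 on the opposite strand, with which it shares 9.09% of its 100-base windows. Dld, the dihydrolipoamide dehydrogenase E3 that other 2-oxoacid dehydrogenases share, had 9.97 ± 4.17 CPM per kb (SD, n = 6), and Dlat, the acetyltransferase core E2, 2.38 ± 1.13 CPM per kb (SD, n = 6). Dlat was below Dld in 6 of 6 libraries, and in 4 of 6 when only parts of at least 300 bases were used. The log2 fold changes of Pdha1, Dld and Dlat were between -0.17 and -0.04.

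The kinases that phosphorylate and thereby inactivate E1 differed in level far more than the groups did. Pdk3 was the main one, with 23.6, 22.2 and 25.9 CPM per kb in the control and 23.1, 28.1 and 27.9 CPM per kb in the delipidated libraries. Its highest library was only 1.27 times its lowest, the narrowest spread of any member, and the groups overlapped (log2 fold change 0.14, standard error 0.26). Per kb, Pdk3 made up 79.9% ± 5.11 (SD, n = 6) of the summed level of the 4 kinases, Pdk1 16.8% ± 4.28 and Pdk2 3.30% ± 1.87, and the share of Pdk3 lay between 73.0% and 85.3% with overlapping groups. Pdk3 was above Pdk1, and Pdk1 above Pdk2, in 6 of 6 libraries.

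Pdk4, the kinase that fasting and fatty acids induce in muscle and liver, lies on the reverse strand of chromosome 6 (ENSMUSG00000019577, mm10/GRCm38, 5483351 to 5496309). It had 5 counts in control replicate 1 and 0 counts in the other 5 libraries, and the low-count filter left it untested. A count of 0 allows a level of up to 0.0649 CPM per kb in control replicate 3, the shallowest of these 5 libraries, when 3 counts are taken as the limit, which covers counting error alone. The 5 counts sat on 3 of its 15 exonic parts.

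The phosphatases that reactivate the complex were represented mainly by Pdp2. Its levels were 26.1, 33.2 and 25.3 CPM per kb in the control and 28.3, 30.3 and 19.2 CPM per kb in the delipidated libraries. Delipidated replicate 3 was lowest and control replicate 2 highest, and the groups overlapped (log2 fold change -0.12, standard error 0.24). Pdp1, the calcium-stimulated form, made up 8.97% ± 4.54 (SD, n = 6) of the level of the pair.

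Pyruvate carboxylase, Pcx, which supplies oxaloacetate from pyruvate, was weakly expressed, with 0.731, 2.80 and 6.41 CPM per kb in the control and 1.54, 1.71 and 2.58 CPM per kb in the delipidated libraries. The control libraries held both the lowest and the highest value, and all delipidated libraries fell between them (log2 fold change -0.77, standard error 0.69). Without control replicate 3 the log2 fold change turned to 0.13. On the same scale of CPM per kb, Pdhb was above Pcx in every library, with group means of 45.9 and 51.8 for Pdhb against 3.31 and 1.94 for Pcx.

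Cs, citrate synthase, is encoded on the forward strand of chromosome 10 (ENSMUSG00000005683, mm10/GRCm38, 128337734 to 128362479) and had counts on all 11 of its exonic parts in each library. It was at 74.4, 52.8 and 49.9 CPM per kb in the control and 54.7, 76.1 and 91.6 CPM per kb in the delipidated libraries. Delipidated replicates 2 and 3 lay above every control library and delipidated replicate 1 within the control range. The means were 59.0 ± 13.4 CPM per kb (SD, n = 3) in the control and 74.1 ± 18.6 CPM per kb (SD, n = 3) in the delipidated embryos, with a log2 fold change of 0.33, a standard error of 0.25 and a 95% interval from -0.22 to 0.88. On this scale 95% of the protein-coding genes tested were below Cs.

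Of the isocitrate dehydrogenases, the NAD-dependent enzyme of the cycle is built from Idh3a, Idh3b and Idh3g, whereas Idh1 in the cytosol and Idh2 in mitochondria use NADP. Idh3g, a regulatory subunit, was highest, with 21.9, 27.7 and 27.1 CPM per kb in the control and 23.9, 21.0 and 36.0 CPM per kb in the delipidated libraries. The delipidated libraries enclosed the control range (log2 fold change 0.08, standard error 0.29). Idh3a, the catalytic subunit, had 10.8 ± 2.98 CPM per kb (SD, n = 6), below Idh3g in 6 of 6 libraries, but above it in 6 of 6 when only parts of at least 300 bases were used. Idh3b had 5.02 ± 2.18 CPM per kb (SD, n = 6). Idh1 was scattered, with 2.13, 0.786 and 11.3 CPM per kb in the control and 1.21, 2.00 and 3.46 CPM per kb in the delipidated libraries. Control replicate 3 stood above the other 5 libraries, and the log2 fold change of -1.09 (standard error 0.85) turned to 0.61 without it.

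Idh2 was the member in which the groups did not overlap. The gene lies on the reverse strand of chromosome 7 (ENSMUSG00000030541, mm10/GRCm38, 80094846 to 80115392), and its enzyme makes NADPH in the mitochondrial matrix. Summed over its 30 exonic parts, Idh2 was counted 70, 166 and 69 times in control and 49, 34 and 10 times in delipidated replicates 1 to 3, which corresponded to 2.28, 3.88 and 2.03 CPM per kb and to 0.935, 0.807 and 0.273 CPM per kb. Every delipidated library was below every control library, an arrangement found for 1 of the 33 members tested in this direction and for 5.05% of all genes tested, and for 0 members in the other direction beside 3.81% of all genes. In CPM, the mean was 7.06 ± 2.60 (SD, n = 3) in the control and 1.74 ± 0.909 (SD, n = 3) in the delipidated embryos. The exact two-sided permutation p was 0.1, the smallest that 3 against 3 libraries allow and the one that any separation of the groups gives. With edgeR's quasi-likelihood test the log2 fold change came to -2.01 (standard error 0.79, 95% interval from -3.74 to -0.28), and the p-value was 0.0262 before and 1.00 after Benjamini-Hochberg adjustment over all genes.

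Many exonic parts of Idh2 had no counts. Counts were found on 13, 15 and 12 of the 30 parts of Idh2 in the control and on 7, 10 and 5 parts in the delipidated libraries. The most counts that any single part held were 8, 23 and 12 in the control and 12, 4 and 2 in the delipidated libraries. In raw counts the maximum of delipidated replicate 1, at 12, equalled that of control replicate 3 and exceeded that of control replicate 1, at 8. Relative to library size the maxima left the groups apart. They were picked separately in each library from the same counts, so nothing further is concluded from them. The 10 counts of delipidated replicate 3 were 2 counts on each of 5 adjacent parts, from part 23 to part 27 (80099140 to 80103213), and in control replicate 2 a run of 4 adjacent parts carried 23 counts each. Reads are counted once per part they touch, so the run in delipidated replicate 3 may come from as few as 2 fragments. Sums of other libraries are raised in the same way. In control replicate 1 each part from part 2 to part 8 carried 8 counts, and in delipidated replicate 1 parts 27 and 28 carried 12 each. Counts are given per part alone, so whether the groups stay apart in fragments was not tested. Without control replicate 2 the unadjusted p from edgeR was 0.123 with a log2 fold change of -1.67, and without delipidated replicate 3 it was 0.0692 with -1.65. When each gene was represented by its part with most counts, Idh2 no longer passed the filter. In that setting edgeR's quasi-likelihood test gave Sucla2 a log2 fold change of -1.47 with an unadjusted p of 0.0489, the only one under 0.05 among the members, against -0.47 and 0.302 with all parts.

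**Figure D3:**
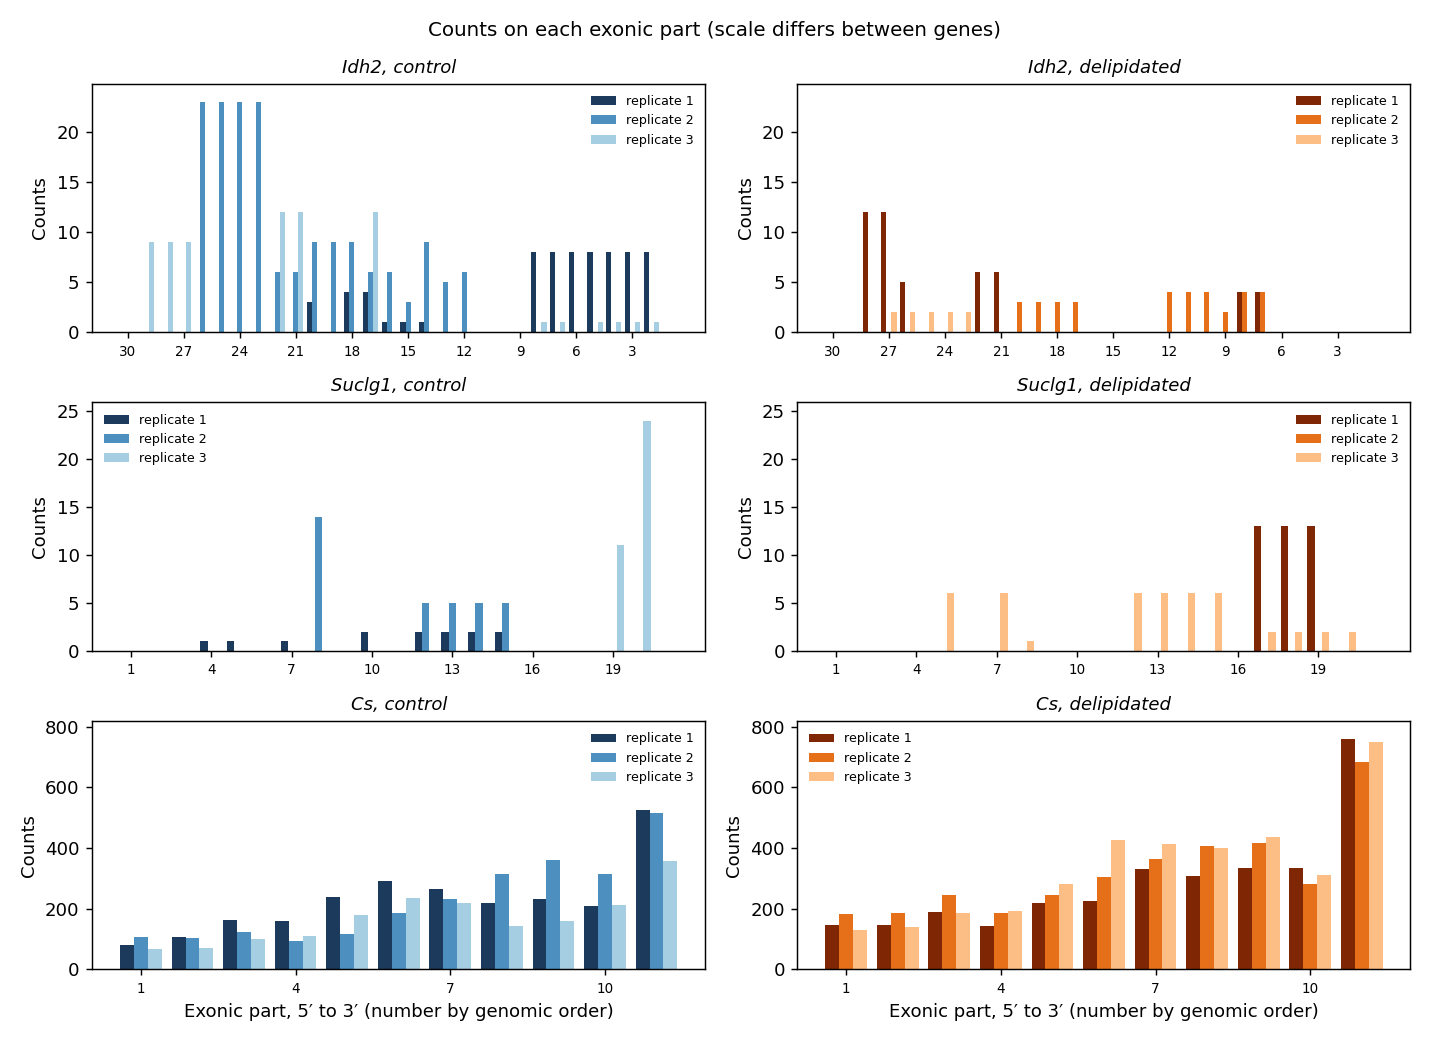
Counts on each exonic part of Idh2, Suclg1 and Cs in the 3 control (left) and 3 delipidated (right) libraries, in the 5′ to 3′ direction of the gene; bars are raw counts and the vertical scale differs between genes. Cs has counts on all 11 parts in each library, whereas Idh2 and Suclg1 have runs of equal counts on some parts and none on others.

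The summed levels of 3 marker lists of other cells were, like Idh2, lower in each delipidated library than in any control library. Of the stromal list, 6 of 10 genes were tested, and all 6 had a negative log2 fold change. With edgeR 4 had an unadjusted p under 0.05, beside 1.74% of all genes tested that were lower, while 0 were called. These 4, Vim, Col1a1, Sparc and Lgals1, passed the low-count filter through the control libraries, where they are high. For Vim and Col1a1, at 0 in each delipidated library, the negative sign was thereby fixed. Dcn, seen in a delipidated library alone, was not tested, so nothing is concluded from this tally. The list summed to 30.2, 29.5 and 64.0 CPM in the control and 3.11, 4.12 and 6.85 CPM in the delipidated libraries. Per kb, Lgals1 was its most abundant gene, and Vim, Col1a1, Col3a1, Lum and Pdgfrb had 0 counts in each delipidated library. Of these 5 genes, Vim and Col1a1 had counts in all 3 control libraries, Col3a1 and Pdgfrb in 2 and Lum in 1, whereas Dcn had 27 counts in delipidated replicate 3 and 0 elsewhere. The leukocyte list summed to 14.8, 10.9 and 10.5 CPM in the control and 6.67, 8.66 and 6.21 CPM in the delipidated libraries, again without overlap, with Cd74 as the most abundant gene per kb, Ptprc under 0.1 CPM per kb on average, and Tyrobp and Lyz2 at 0 in the delipidated group. All parts of Cd74 carry joined identifiers, and without this gene, a choice made after the data were seen, the sums of the list overlapped, at 10.5, 5.93 and 9.73 CPM against 2.42, 7.68 and 6.21 CPM. Other leukocyte genes ran against the sum: Fcer1g had counts in delipidated replicate 3 alone, and Cd52 was higher on average (log2 fold change 0.87, standard error 1.64). The level of Cd52 is uncertain, since 45.0% of its counts lie on parts that overlap Crybg2 on the opposite strand. The erythrocyte list was lower without overlap as well, at 4.05, 3.99 and 4.94 CPM against 0, 1.47 and 0.847 CPM, with Hba-a2 the most abundant per kb and Hbb-bs and Hbb-bt at 0 in all 6 libraries. The part of these lists, and of the smaller number of genes seen in the delipidated libraries, in the difference of Idh2 was not tested.

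The sums of the remaining marker lists did not separate the groups. Cumulus and granulosa genes summed to 6.24, 10.3 and 66.7 CPM in the control and 2.12, 9.58 and 12.1 CPM in the delipidated libraries, and 49.6 CPM of control replicate 3 came from Cyp11a1, which had 4 counts in control replicate 1 and 0 in the other 4 libraries. Tnfaip6 was the most abundant of this list per kb, and Cd44, Ptx3 and Foxl2 had 0 counts in all 6 libraries. Genes of the oviduct epithelium, among which Epcam and Cdh1 are known from oocytes and embryos too, summed to 215, 389 and 257 CPM in the control and 243, 293 and 187 CPM in the delipidated libraries. Epcam was the most abundant per kb, no gene of this list was at 0 in all libraries, and Cdh1 was lower at an unadjusted p of 0.00532. Markers of the labelled stage were present: all 8 listed 2-cell genes found in the annotation had counts in each library, with Tcstv3 at 39.6 ± 9.28 and Zfp352 at 39.2 ± 16.9 CPM per kb (SD, n = 6 each) as the highest, and all 10 oocyte genes were present, Oosp1 leading with 477 ± 99.0 CPM per kb (SD, n = 6). Of both lists, 0 genes had an unadjusted p under 0.05. The sums of the 2-cell list were 397, 150 and 322 CPM in the control and 231, 285 and 400 CPM in the delipidated libraries, and those of the oocyte list 1484, 1039 and 1451 CPM and 1146, 1352 and 1657 CPM.

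The 2-oxoglutarate dehydrogenase was measured through Ogdh, its E1, and Dlst, its succinyltransferase core. Dlst had 16.3, 9.83 and 14.5 CPM per kb in the control and 14.9, 19.9 and 17.2 CPM per kb in the delipidated libraries. Delipidated replicates 2 and 3 were above all control libraries and delipidated replicate 1 was within their range (log2 fold change 0.36, standard error 0.32). Ogdh had 12.8 ± 2.92 CPM per kb (SD, n = 6), and Dlst exceeded it in 5 of 6 libraries. The log2 fold change of Ogdh was 0.01 (standard error 0.30).

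Succinyl-CoA ligase pairs a common alpha subunit, Suclg1, with either of the beta subunits Sucla2, which makes ATP, and Suclg2, which makes GTP. Suclg2 was at 13.1, 6.79 and 9.75 CPM per kb in the control and 7.49, 11.7 and 10.2 CPM per kb in the delipidated libraries. The delipidated values lay inside the control range. Sucla2 had a similar level, 8.21 ± 3.97 CPM per kb (SD, n = 6), and Suclg2 was the higher of the pair in 5 of 6 libraries. The log2 fold change of Sucla2, -0.47 (standard error 0.43), turned to 0.14 without control replicate 1.

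The alpha subunit stood far below both. Suclg1 (ENSMUSG00000052738, forward strand of chromosome 6, mm10/GRCm38, 73248382 to 73276911) was counted 13, 34 and 35 times in control and 39, 0 and 45 times in delipidated replicates 1 to 3, or 0.238, 0.445 and 0.576 CPM per kb and 0.417, 0 and 0.688 CPM per kb. Delipidated replicate 2 had no count, which allows up to 0.0399 CPM per kb, and the other libraries overlapped between the groups. On average over the 6 libraries Sucla2 was 20.8 times as high per kb as Suclg1. Sucla2 was above Suclg1 in 6 of 6 libraries, also with bases added to each part. Among parts of at least 300 bases, Suclg1 had counts on part 8 alone, 14 in control replicate 2 and 1 in delipidated replicate 3. With such parts alone it was at 0 in the remaining libraries, so that setting could not test the order there. Part 11 of Suclg1, with 2460 of its 4617 bases, had 0 counts in each library. Without this part the level of Suclg1 per kb would be higher, and its distance from Sucla2 and Cs smaller. Only 9.70% of the protein-coding genes tested were below Suclg1 in CPM per kb, against 64.8% below Sucla2 and 68.4% below Suclg2. Its parts with counts numbered 8, 5 and 2 of 21 in the control and 3, 0 and 11 in the delipidated libraries. None of the 100-base windows in its transcripts occurred in another annotated gene, while reads that map to several places were not counted. Its log2 fold change of -0.19 had a standard error of 1.44, the widest of the members.

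Succinate dehydrogenase, also complex II of the respiratory chain, was uneven in the same way. Its flavoprotein subunit Sdha had 20.2, 11.2 and 10.8 CPM per kb in the control and 12.5, 17.3 and 10.4 CPM per kb in the delipidated libraries. Control replicate 1 was highest and delipidated replicate 3 lowest, and the groups overlapped (log2 fold change -0.07, standard error 0.34). The iron-sulfur subunit Sdhb had 2.39 ± 1.46 CPM per kb (SD, n = 6), and the membrane anchors Sdhc and Sdhd had 1.48 ± 0.626 and 1.19 ± 0.802 CPM per kb (SD, n = 6 each). Sdha was above Sdhb in 6 of 6 libraries and 5.74 times as high on average, whereas the ranges of Sdhb, Sdhc and Sdhd overlapped. Sdhb was above Sdhc in 5 of 6 libraries, and in 0 of 6 when only parts of at least 300 bases were used. Sdhd, with 7 to 44 counts per library on a gene of 4 parts, and Sdhc had log2 fold changes of 0.69 and 0.73 with standard errors of 1.27 and 0.72. The log2 value of Sdhd moved to 1.65 without control replicate 3 and to 0.28 without delipidated replicate 2.

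Fumarase, Fh1, which hydrates fumarate to malate in mitochondria and cytosol, had 5.20, 3.44 and 3.38 CPM per kb in the control and 4.03, 4.0 and 4.54 CPM per kb in the delipidated libraries. The delipidated libraries lay between the control libraries, with a log2 fold change of 0.06 (standard error 0.43).

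Among the malate dehydrogenases, the mitochondrial Mdh2, which closes the cycle, exceeded the cytosolic Mdh1, its partner in the malate-aspartate shuttle, in 6 of 6 libraries. Mdh2 had 32.3, 48.0 and 41.1 CPM per kb in the control and 68.9, 47.7 and 40.5 CPM per kb in the delipidated libraries. Delipidated replicate 1 was highest by a margin, and the other 2 delipidated libraries lay within the control range (log2 fold change 0.37, standard error 0.26). Mdh1 varied 9.85-fold between libraries, from 1.63 CPM per kb in delipidated replicate 2 to 16.0 CPM per kb in delipidated replicate 1, so the extremes fell in the same group. The share of Mdh2 in the level of the pair was 84.9% ± 8.55 (SD, n = 6), with overlapping groups.

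The malic enzymes, which turn malate into pyruvate with the reduction of NADP or NAD, were led by the cytosolic Me1, a source of NADPH for fatty acid synthesis. Me1 had 59.9, 42.8 and 56.4 CPM per kb in the control and 45.8, 45.8 and 77.3 CPM per kb in the delipidated libraries. Delipidated replicate 3 was highest and control replicate 2 lowest, and the groups overlapped (log2 fold change 0.09, standard error 0.25). Of the transcripts of Me1, 14.6% of the 100-base windows occur in other genes, pseudogenes among them. The mitochondrial forms were lower, with Me2 at 12.0 ± 2.86 and Me3 at 0.501 ± 0.318 CPM per kb (SD, n = 6 each). The order Me1, Me2, Me3 held in 6 of 6 libraries, and the share of Me1 was 81.8% ± 0.714 (SD, n = 3) in the control and 81.0% ± 2.27 (SD, n = 3) in the delipidated embryos.

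**Figure D4:**
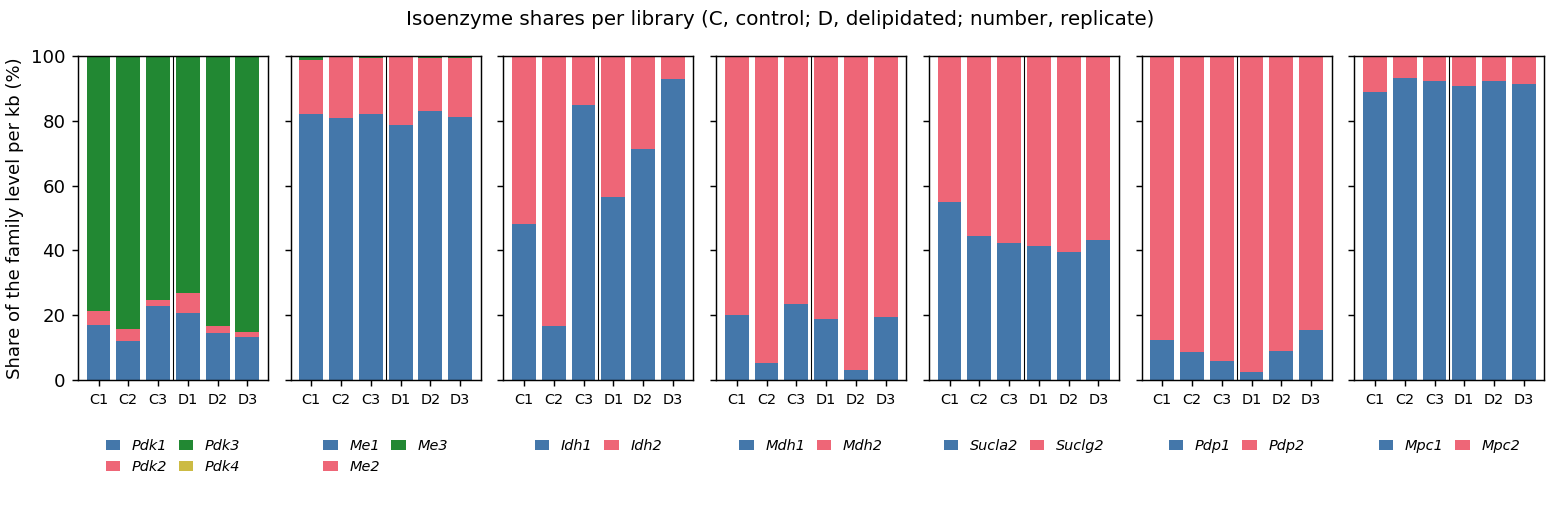
Share of each isoenzyme or subunit in the summed level per kb of its family, for each of the 6 libraries (C1 to C3 control, D1 to D3 delipidated). Pdk3, Me1, Mdh2, Pdp2 and Mpc1 hold the larger share in each library, whereas the shares of Idh1 and Idh2 vary from library to library.

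Shares within a family do not depend on the library size. In none of the 7 families listed did the shares of the groups separate. The share of Mpc1 among the carrier subunits was 91.4% ± 1.47 (SD, n = 6), and that of Suclg2 among the beta subunits 55.7% ± 5.55 (SD, n = 6). Idh2 took 51.7%, 83.2% and 15.2% of the level of Idh1 and Idh2 in the control and 43.6%, 28.8% and 7.30% in the delipidated libraries. Control replicate 3 fell below delipidated replicates 1 and 2 here, so that the separation of the groups in Idh2 did not extend to its share.

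The spread over the 6 libraries differed widely between members. Pdk3, Mpc1 and Fh1 differed 1.27-, 1.51- and 1.54-fold between their lowest and highest library, whereas Idh1, Idh2, Sdhb and Mdh1 differed 14.4-, 14.2-, 13.0- and 9.85-fold. In Idh1 the highest library was a control and in Sdhb and Mdh1 a delipidated one, so these wide ranges had no common direction.

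Further genes of the pathway were compared in the same way. Of 38 genes in 5 lists, 32 were tested, of which 20 had a positive and 12 a negative log2 fold change, with a median of 0.15; 0 genes were called by edgeR and 0 had an unadjusted p under 0.05 in either direction. The groups did not overlap for 4 of the 32 genes, with 2 higher, Dhtkd1 and Sdhaf3, beside 3.81% of all genes tested, and 2 lower, Got2 and Sdhaf1, beside 5.05%. Sdhaf3 passed the low-count filter through the delipidated and Sdhaf1 through the control libraries, the group where each is high. Nothing is concluded from the separation of these 2 genes. Dhtkd1, the 2-oxoadipate dehydrogenase, had 8.73, 7.66 and 9.76 CPM per kb in the control and 15, 10.9 and 10.9 CPM per kb in the delipidated libraries. All 3 delipidated values were above the control values (log2 fold change 0.49, standard error 0.27, unadjusted p from edgeR 0.0937). Got2, the mitochondrial aspartate aminotransferase, had 3.43, 6.14 and 3.47 CPM per kb in the control and 2.85, 2.74 and 2.00 CPM per kb in the delipidated libraries. Here all 3 delipidated values were below the control values (log2 fold change -0.78, standard error 0.44, unadjusted p from edgeR 0.0997), but 35.9% of the counts of Got2, and 14.6% of those of Dhtkd1, lie where Gm45760 and Gm13267 run on the opposite strand. Sdhaf1 and Sdhaf3, assembly factors of succinate dehydrogenase, had at most 46 and 38 counts in a library, and standard errors of 1.48 and 1.56 on log2 fold changes of -1.85 and 1.90. The level of Sdhaf1 is uncertain, since its only part overlaps E130208F15Rik on the opposite strand.

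For pyruvate and lactate uptake and conversion, Ldhb, the lactate dehydrogenase subunit favoured in oxidative tissue, was highest at 172, 87.2 and 147 CPM per kb in the control and 92.9, 119 and 242 CPM per kb in the delipidated libraries. It exceeded Cs in mean level on this scale, and its groups overlapped. Pdpr, the regulatory subunit of the phosphatase, led the list of lipoylation and related genes with 31.8, 23.4 and 22.7 CPM per kb in the control and 21.9, 30.9 and 23.1 CPM per kb in the delipidated libraries, again with overlap.

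Slc25a11, the 2-oxoglutarate and malate carrier, led the carriers with 8.0, 14.1 and 7.60 CPM per kb in the control and 4.40, 10.6 and 6.53 CPM per kb in the delipidated libraries, and these ranges overlapped. Among genes of glutamate, aspartate and oxaloacetate exchange, Glud1, glutamate dehydrogenase, led with 28.5, 37.0 and 20.8 CPM per kb in the control and 37.9, 40.5 and 28.8 CPM per kb in the delipidated libraries. Its groups overlapped as well, and Pck1, the cytosolic enzyme that turns oxaloacetate into phosphoenolpyruvate, had 0 counts in all 6 libraries.

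Promoters of 300 bases, from 250 before to 50 after a gene start, were found for 30 of the 34 members in RefSeq on GRCm38.p6. The letters CACGTG, the core of the E-box that is also part of carbohydrate response elements, occurred in the window of 4 of the 30 members, Ogdh, Pcx, Pdk2 and Pdp2, beside 8.09% of 27025 genes. Their log2 fold changes were 0.01, -0.77, 0.15 and -0.12. TGCGCA, a core of sites for nuclear respiratory factor 1, occurred for 6 members beside 8.79% of all genes, and AAGGTCA or its reverse complement TGACCTT, the half-site of estrogen-related receptors, for 2 members beside 5.38%. The first 2 motifs read the same on both strands, and a match describes the letters of the window alone.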

How the data were processed

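Per the labels, total RNA of embryo pools was made into libraries with a strand-preserving kit after depletion of ribosomal RNA. According to the submitters' processing notes, the authors used bcl2fastq 2.20, Trimmomatic 0.36, STAR 2.5.2b on mm10 and featureCounts, and deposited raw counts of unique reads per exonic part; whether strand was used is not stated. Parts were summed per gene with Python 3.11.15; of 33309 parts under joined identifiers, 27968 were assigned to 1 gene by their exons, and 2.49% to 2.57% of counts were left out. Reads spanning parts enter each of them, so the sums overstate precision. Delipidated and control libraries were compared in R 4.3.3 by means of edgeR 4.0.16 (filterByExpr with minimum count 10 and minimum total count 15, TMM, quasi-likelihood, Benjamini-Hochberg over all genes), tested on simulated data; the biological coefficient of variation was 0.663. The members and lists were chosen with earlier results of these data known. Full values are given for members with an unadjusted p under 0.05, with groups that do not overlap, highest per kb in their role or removed by the filter, and for the highest gene per kb of 4 of the 5 pathway lists, while of each marker list the sum is given and the most abundant gene and those at 0 are named; members whose direction turned on a single library or that differ strongly from their partners, pathway genes whose groups do not overlap, Cyp11a1, Dcn, Fcer1g and Cd52 were described after their values were seen. Alternatives were DESeq2 1.42.0, its size factors, other filters, library sizes without mitochondrial genome and rRNA genes, a replicate block, each library left out, other rules for parts, and no fold threshold.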

Additional observations from a re-analysis of the deposited data

How the results depend on the processing

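No alternative called a member. Among all genes, 0 were called with edgeR, 9 higher and 40 lower with DESeq2's Wald test without a filter, and 5 higher and 25 lower with edgeR without a filter. Idh2 kept its negative log2 fold change wherever it was tested, from -2.33 to -1.65 with 1 library left out, and the number of members lower at an unadjusted p under 0.05 was 0 to 1. It was not tested with the part with most counts.

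The replicates share only a number between the groups: correlations of same-numbered deviations were -0.084, 0.070 and 0.043. With the replicate block, 0 genes were called, Idh2 had -2.13, and the log2 fold change turned for Dlat (0.0724), Pdk1 (0.0328), Pdk2 (-0.0613), Suclg2 (0.0176), Sdhb (-0.22) and Mdh1 (-0.0275).

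With the part with most counts of each gene, it turned for Pdhb (-0.0624), Dlat (0.36), Idh3a (-0.0269), Suclg2 (0.10), Sdha (0.0617), Sdhb (-0.52) and Me1 (-0.0232). Without turning, Fh1 moved from 0.06 to 0.76 and Me3 from -0.34 to -1.23 in this setting. With 1 library left out at a time, 22 members turned: Dlat (-0.32 to 0.66), Idh3g (-0.19 to 0.23), Ogdh (-0.14 to 0.23), Sucla2 (-0.75 to 0.14), Suclg2 (-0.22 to 0.26), Sdha (-0.30 to 0.29), Me3 (-0.97 to 0.36), Pdha1 (-0.44 to 0.0334), Dld (-0.75 to 0.21), Pdp2 (-0.25 to 0.0508), Sdhb (-0.26 to 0.75), Fh1 (-0.0453 to 0.31), Mdh1 (-0.44 to 0.78), Me1 (-0.21 to 0.22), Pdk1 (-0.31 to 0.33), Pdk2 (-0.68 to 0.50), Pcx (-1.23 to 0.13), Idh1 (-1.59 to 0.61), Suclg1 (-1.0 to 0.39), Pdp1 (-0.63 to 0.19), Idh3a (-0.20 to 0.39) and Me2 (-0.0772 to 0.40). The cause was not tested.

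Without mitochondrial genome and rRNA genes in the library size, the summed level was 1698 CPM in the control and 1802 CPM in the delipidated group. The median level of the members per kb, 8.35, was 1.38 with parts of at least 300 bases and 4.17 with 150 bases added to each part, so levels per kb depend on how length is taken; 8 and 10 of the 10 highest members were kept, while Idh3g and Idh3a, and Sdhb and Sdhc, changed places with long parts. Shares moved for Pdk3 (57.2%) and Mdh2 (71.0%) with long parts and for Suclg2 (61.5%) and Mpc1 (83.3%) with added bases; Mpc1 has no long part. Leaving out parts that overlap the opposite strand was chosen after the data were seen and turned no member.

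With 3 pools a group and summed parts, low genes such as Suclg1, Sdhd and Pdk2 carry too few counts for their direction to be read, and a 2-fold difference stays within the 95% interval of 17 members. Lengths are those of annotated exonic parts, not of the transcripts present. Reads that map to several places were not counted, and RNA carried over from the oocyte cannot be told from new transcripts.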
